A study of Mus musculus with 8 samples.

Results

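Type II cadherins are calcium-dependent adhesion proteins that hold neighbouring cells together through their extracellular domains and link to catenins inside the cell. In the brain they are expressed in different combinations by different groups of neurons, and they take part in the sorting of neurons and in the matching of synaptic partners. By their binding in vitro, the family falls into 3 adhesion groups, in which Cdh6, Cdh9 and Cdh10, then Cdh8 and Cdh11, then Cdh7, Cdh12, Cdh18 and Cdh20 recognise members of their own group. Peaks of open chromatin were followed at these 9 genes, out of 21631 protein-coding genes that RefSeq lists for GRCm38.p6 (mm10). A peak was assigned to a gene when its summit lay in the gene or within 5 kb of either end. Each of the 9 genes held at least 8 peaks over the libraries, the least a gene needed to be tested.

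The libraries were ATAC-seq, which marks open chromatin by the cuts of a transposase. They came from amygdala neurons of male C57BL/6J mice that had received an AAV with a guide in the amygdala. In 4 mice the guide was directed at Nr2f2 (sgNr2f2), the gene of the nuclear receptor COUP-TFII, and in 4 control mice at the Rosa26 locus (sgRosa), a site used as a neutral target. All mice of both groups had 7 days of restraint stress, after which fear was conditioned (1 day) and extinguished (3 days), so no unstressed animal enters the comparison. Neurons were enriched with a magnetic isolation kit, and the sources used here give neither the age of the mice nor the promoter of the virus nor the nuclease. A library was taken as 1 animal, since the design text counts 4 mice per group.

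The deposited peak lists held 53864 to 103939 peaks in sgNr2f2 libraries and 60880 to 143405 in sgRosa libraries. Because a longer list holds more weak peaks, counts below rest on 53864 peaks per library, the strongest by −log10 p (equal-length lists), unless full lists are named. Read totals are not part of the lists, so depth is unknown. The lists carry no transcript levels, so they do not check the knockdown; at Nr2f2 itself the sgNr2f2 libraries had 0, 0, 0 and 1 peaks and the sgRosa libraries 0, 0, 1 and 1. Neuronal markers held few peaks: of 9 neuronal genes, 0 to 3 carried a peak at either gene end (within 1 kb) in sgNr2f2 libraries and 0 to 2 in sgRosa libraries. Of the 4 markers listed for each of the astrocytes, oligodendrocytes, microglia and vascular cells, 0 or 1 had such a peak in sgNr2f2 libraries and 0 to 2 in sgRosa libraries, so the lists do not set neurons apart from other cells at these ends. In bulk libraries, fewer cells with an open site and less signal per cell cannot be told apart.

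Few peaks lay at the start sites of these genes, and the exceptions are shown first. The promoter table covered 8 of the 9 genes with 10 windows, each from 250 bases before to 50 after a RefSeq start. The starts listed for Cdh12 (21111451) and Cdh18 (23036462) lie far inside the gene spans used here, which begin at 20448878 and 22548898. The low-coordinate ends of these 2 spans were not searched as start sites. In full and equal-length lists alike, a summit within 1 kb of a start was found for Cdh20 and Cdh7 in sgNr2f2 1, for Cdh9 in sgNr2f2 4 and in sgRosa 3, for Cdh6 in sgRosa 3 and for Cdh18 in sgRosa 1. No library had one at Cdh8, Cdh10 or Cdh12. The strongest of them was at Cdh6, with a −log10 p of 7.51 in sgRosa 3, and the summit lay 556 bases beyond the start, inside the gene. Peaks overlapped the promoter window itself at Cdh9 and at the last of the 3 Cdh7 windows. Both windows follow, on the plus strand of GRCm38.p6 from RefSeq, with the bases under the peak in capitals. The Cdh9 window, chr15:16728665-16728964, is shown because Cdh9 was the single member with a start-site peak in more than 1 library, and 169 of its bases lay under a peak of sgNr2f2 4 with a −log10 p of 2.45. The Cdh7 window, chr1:109983473-109983772, was chosen after its values were seen, and 157 of its bases lay under a peak of sgNr2f2 1 with a −log10 p of 4.09. Neither printed peak had a q under 0.05, with a −log10 q of 0.232 at Cdh9 and 0.845 at Cdh7.
Cdh9: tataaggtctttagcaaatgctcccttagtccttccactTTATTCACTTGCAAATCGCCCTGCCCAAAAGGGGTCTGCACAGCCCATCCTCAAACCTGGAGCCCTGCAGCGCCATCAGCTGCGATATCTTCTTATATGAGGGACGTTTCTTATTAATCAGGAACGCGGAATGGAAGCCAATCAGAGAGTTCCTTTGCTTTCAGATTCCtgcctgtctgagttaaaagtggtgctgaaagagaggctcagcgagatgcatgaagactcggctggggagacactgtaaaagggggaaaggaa
Cdh7: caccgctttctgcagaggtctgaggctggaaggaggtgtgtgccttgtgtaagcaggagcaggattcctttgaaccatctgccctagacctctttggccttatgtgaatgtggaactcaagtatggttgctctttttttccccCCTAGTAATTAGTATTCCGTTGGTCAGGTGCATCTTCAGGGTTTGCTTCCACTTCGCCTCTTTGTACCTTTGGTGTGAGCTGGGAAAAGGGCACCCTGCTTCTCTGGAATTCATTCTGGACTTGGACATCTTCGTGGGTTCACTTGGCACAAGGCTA
The nuclear receptor half-site AGGTCA, searched on both strands, was in 1 of the 10 member windows (Cdh18, reverse strand) and in 14.6% of 21045 windows of all protein-coding genes. Median GC content was 51.8% in the member windows and 56.7% in all windows.

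Summed over the 9 genes, sgNr2f2 libraries held 58, 60, 56 and 55 peaks, against 122, 89, 78 and 93 in sgRosa libraries. The groups did not overlap, and the sgNr2f2 mean of 57.2 ± 2.22 was 0.599 times the sgRosa mean of 95.5 ± 18.8 (SD, n = 4 each). The members were chosen with results of these data known, so this sum carries no test. The gene windows cover 3.58 Mb, or 0.136% of the 2631 Mb spanned by the lists. They held 0.102% to 0.111% of a library's peaks in sgNr2f2 and 0.145% to 0.226% in sgRosa. Every sgNr2f2 library was thus below the share that the length of the windows gives, and every sgRosa library above it, sgRosa 3 narrowly (0.145%). That length includes chromosome X, which holds no member and had few peaks. The flanks of the X-linked genes Pcdh11x and Pcdh19 held 0.625 and 1.125 peaks per Mb. A share over the autosomes alone, which would be higher, was not computed, so whether sgRosa 3 lies above that share is not known. In full lists the sums were 104, 100, 64 and 55 peaks in sgNr2f2 libraries, against 147, 101, 85 and 225 in sgRosa libraries. These ranges overlap, while as a percent of each full list they did not, at 0.100% to 0.102% in sgNr2f2 and 0.140% to 0.231% in sgRosa. Mean peak number was lower in sgNr2f2 at all 9 genes in the equal-length lists, beside 36.6% of 8106 genes tested, at 7 of 9 in full lists, beside 38.7% of 11368, and at 5 of 9 when counts were scaled to peaks in gene-poor sequence (below). The median difference was −1 peak over the members and 0.25 over all genes tested.

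**Figure D1:**
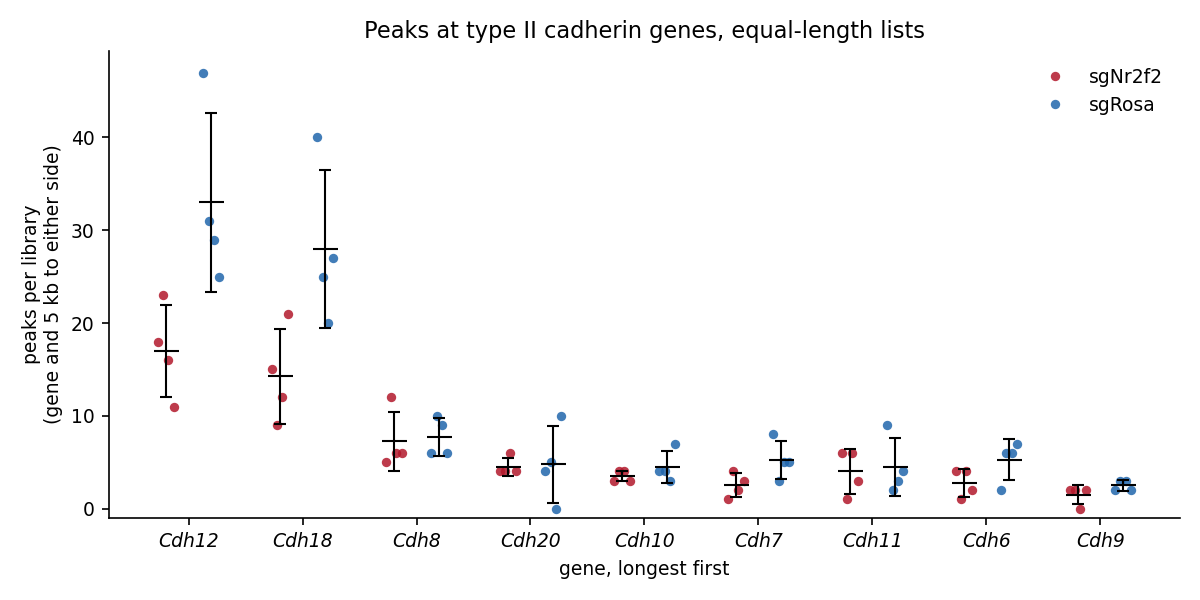
Peaks per library in each gene and 5 kb to either side, equal-length lists, genes ordered by length, with sgNr2f2 to the left of sgRosa. Points are libraries and bars are mean and SD (n = 4 each); Cdh12 and Cdh18 hold 369 of the 611 peaks, and Cdh12 is the gene whose groups do not overlap.

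In the adhesion group of Cdh7, Cdh12, Cdh18 and Cdh20, the difference in number of peaks was largest at Cdh12, the longest of the genes; it was not ranked per length. Cdh12, a classical cadherin of neurons that spans 1149.5 kb (chr15:20448878-21598421), had 18, 23, 16 and 11 peaks in sgNr2f2 libraries, against 47, 31, 29 and 25 in sgRosa libraries. All sgNr2f2 values were below all sgRosa values, with means of 17 ± 4.97 in sgNr2f2 and 33 ± 9.66 in sgRosa. The difference of −16.0 peaks had an exact two-sided permutation p of 0.0286, the smallest that 4 against 4 libraries allow, and an adjusted p of 1 (Benjamini-Hochberg over 8106 genes). Cdh12 was 1 of 9 members under an exact p of 0.05, all lower in sgNr2f2, while 0.543% of genes tested passed that threshold lower in sgNr2f2 and 1.3% higher. No gene passed an adjusted p of 0.05 (0% of those tested), so no member is called changed by this test. In full lists Cdh12 had 36, 33, 16 and 11 peaks in sgNr2f2 libraries, against 60, 36, 33 and 69 in sgRosa libraries, and the groups overlapped (exact permutation p = 0.143). No member was under an exact p of 0.05 in full lists, where 0.264% of genes passed it lower in sgNr2f2.

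Cdh18, another brain-expressed classical cadherin, spans 928.6 kb next to Cdh12 (chr15:22548898-23477491). It had 15, 9, 12 and 21 peaks in sgNr2f2 libraries, against 40, 25, 20 and 27 in sgRosa libraries. The highest sgNr2f2 library passed the lowest sgRosa library by 1 peak, and the means were 14.2 ± 5.12 peaks in sgNr2f2 and 28 ± 8.52 in sgRosa (exact permutation p = 0.0571). Cdh12 and Cdh18 together held 33, 32, 28 and 32 peaks in sgNr2f2 libraries, against 87, 56, 49 and 52 in sgRosa libraries. That is 60.4% of all member peaks, so the summed count leans on these 2 genes. The other 7 members together held 25, 28, 28 and 23 peaks in sgNr2f2 libraries and 35, 33, 29 and 41 in sgRosa libraries, a narrower gap with a ratio of 0.754. That gap was uneven. Cdh6 averaged 2.75 ± 1.5 peaks in sgNr2f2 and 5.25 ± 2.22 in sgRosa, and Cdh7 2.5 ± 1.29 and 5.25 ± 2.06. In proportion these 2 genes were about as much lower in sgNr2f2 as Cdh12 (ratio 0.515) and Cdh18 (0.509). Cdh8, Cdh9, Cdh10, Cdh11 and Cdh20 differed by −1 to −0.25 peaks. In full lists those 7 had 23 to 50 peaks in sgNr2f2 libraries and 31 to 87 in sgRosa libraries, which overlap.

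Cdh7 (chr1:109982237-110145272) had 1, 4, 2 and 3 peaks in sgNr2f2 libraries, against 8, 3, 5 and 5 in sgRosa libraries. The groups overlapped through sgRosa 2, which had fewer peaks than sgNr2f2 2 (difference −2.75, exact permutation p = 0.0857). Cdh20, on the same chromosome (chr1:104768340-104995481), had 4, 4, 6 and 4 peaks in sgNr2f2 libraries, against 4, 5, 0 and 10 in sgRosa libraries. Its sgRosa libraries bracketed all sgNr2f2 libraries, and the exact permutation p was 1.

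In the adhesion group of Cdh6, Cdh9 and Cdh10, all 3 genes lie on chromosome 15 and none separated the groups. Cdh6, known from kidney epithelium and subsets of neurons (chr15:13028699-13176407), had 4, 1, 4 and 2 peaks in sgNr2f2 libraries and 2, 6, 6 and 7 in sgRosa libraries (exact permutation p = 0.171). The overlap came from sgRosa 1, which lay within the sgNr2f2 range. Cdh9, which acts at synapses between dentate granule cells and CA3 neurons in the hippocampus (chr15:16728550-16857138), had 2, 2, 0 and 2 peaks in sgNr2f2 libraries and 2, 3, 3 and 2 in sgRosa libraries (exact permutation p = 0.286). Cdh10 (chr15:18818869-19016206) had 3, 4, 4 and 3 peaks in sgNr2f2 libraries and 4, 4, 3 and 7 in sgRosa libraries (exact permutation p = 0.629). The groups overlap at each of these genes, and counts of a few peaks per library leave small differences undetectable.

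The adhesion group of Cdh8 and Cdh11 lies on chromosome 8 and showed differences of less than 1 peak per library. Cdh8, expressed by subsets of sensory and forebrain neurons (chr8:99024471-99417666), had 5, 12, 6 and 6 peaks in sgNr2f2 libraries and 6, 10, 9 and 6 in sgRosa libraries (difference −0.5, exact permutation p = 0.886). Cdh11, known as osteoblast cadherin and also found in mesenchyme (chr8:102632095-102785493), had 6, 1, 6 and 3 peaks in sgNr2f2 libraries and 9, 2, 3 and 4 in sgRosa libraries (difference −0.5, exact permutation p = 0.914). At both genes the spread within each group exceeded the distance between the group means.

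Per length, members next to each other in order of density differed little, while the ends of the order lay further apart. Over all 8 libraries, Cdh11 had the most peaks per Mb of its window (26.0 ± 15.9, SD, n = 8) and Cdh9 the fewest (14.4 ± 6.68). Between them the order was Cdh6, Cdh18, Cdh7, Cdh12, Cdh20, Cdh10 and Cdh8, and no 2 neighbours in it differed by more than the spread over libraries. The distance between the ends of the order was not tested. The mean over the whole lists, chromosome X included, was 20.5 peaks per Mb, inside the range of the members.

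Gene bodies were then set against the 500 kb beyond either end, which asks whether peaks gather in the genes. Mean density was higher in the body than in the flanks at 6 of 9 members, beside 51.2% of the 4941 protein-coding genes of at least 50 kb. Cdh9 had fewer peaks in its body, 13.6 ± 6.89 per Mb, than in its flanks, 20.5 ± 14.2 per Mb (SD, n = 8), with the body above the flanks in 1 of 8 libraries. Its exact two-sided sign-flip permutation p was 0.0469 and its adjusted p 0.48, where 9.78% of genes passed an exact p of 0.05 and 6.38% passed it with the lower body. The gap leans on sgRosa 1, whose flanks held 52 peaks against 4 to 25 in the other libraries: without it the body was below the flanks by −2.67 peaks per Mb on average, in place of −6.89, and the exact permutation p was 0.0938. Cdh11 stood the other way, with 27.7 ± 16.98 peaks per Mb in its body and 17 ± 7.63 in its flanks (exact permutation p = 0.0547). Cdh12 had 21.7 ± 9.68 peaks per Mb in its body and 19.6 ± 8.18 in its flanks (exact permutation p = 0.125), and Cdh18 had 22.5 ± 10.6 and 22.8 ± 9.27 (exact permutation p = 0.961). For the other 5, the body differed from the flanks by −3.94 (Cdh20) to 3.00 (Cdh7) peaks per Mb. No member, and 0% of the 4941 genes, passed an adjusted p of 0.05, although Cdh9 was 1 member with an unadjusted p under 0.05.

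**Figure D2:**
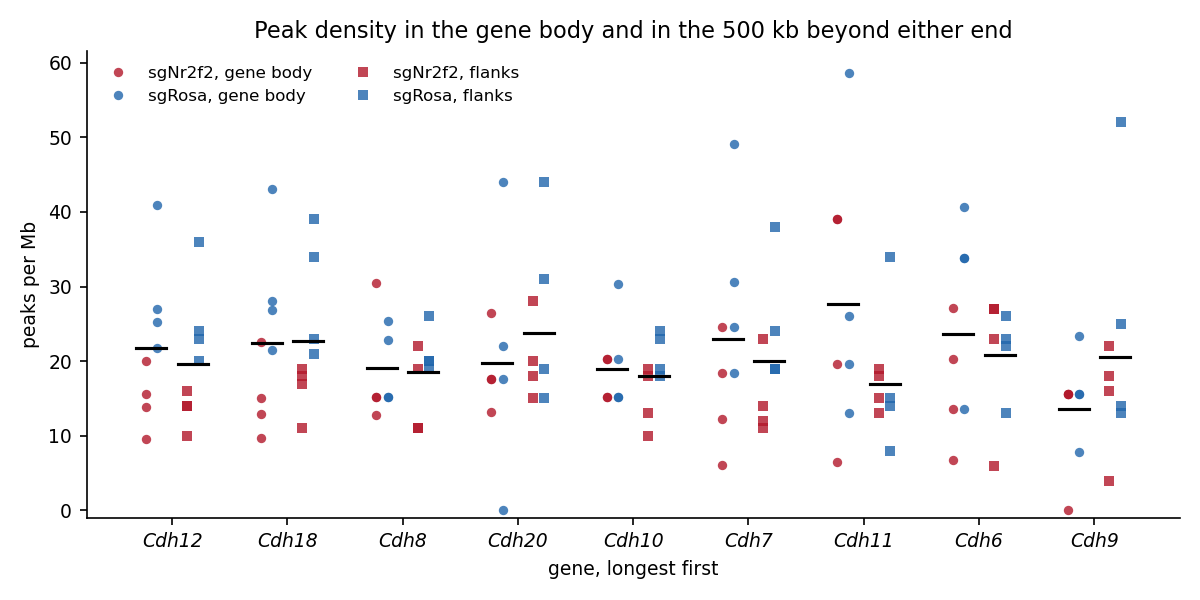
Peaks per Mb in the gene body (circles) and in the 500 kb beyond either end (squares) of each member in each library, with sgNr2f2 left of sgRosa within each pair and black lines at the mean over 8 libraries. At Cdh12 and Cdh18 the sgNr2f2 points are low in body and flanks alike, and at Cdh9 the flank mean of 20.5, above the body mean of 13.6, includes 52 peaks of sgRosa 1, without which the difference shrinks to −2.67.

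The lower counts at Cdh12 and Cdh18 in sgNr2f2 extended beyond the genes. In the flanks of Cdh12 there were 13.5 ± 2.52 peaks in sgNr2f2 libraries and 25.8 ± 7.04 in sgRosa libraries, and the flanks of Cdh18 held 16.2 ± 3.59 in sgNr2f2 libraries, against 29.2 ± 8.66 in sgRosa libraries (SD over 4 libraries). Both differences had an exact permutation p of 0.0286 and an adjusted p of 0.679, in a test added after the data were seen. The 2 genes are neighbours and their flanks overlap, so these are not separate observations. They were 2 of 9 members under an exact p of 0.05, where 1.09% of genes passed it lower in sgNr2f2 and 3.12% higher. Flank means were lower in sgNr2f2 at all 9 members, beside 35.5% of genes of at least 50 kb. When flank density was subtracted from body density, Cdh12 differed between the groups by −1.67 peaks per Mb (exact permutation p = 0.486) and Cdh18 by −1.81 (exact permutation p = 0.771). Cdh6 had the smallest p of this difference, at −13.3 peaks per Mb (exact permutation p = 0.143). No member was under an exact p of 0.05 in this comparison, where 2.93% of genes were. In full lists Cdh12 was, with an exact permutation p of 0.0286 and a difference of −8.93 peaks per Mb, where 2.75% of genes passed.

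The 5 members on chromosome 15 lie in one stretch, over which the lower sgNr2f2 counts reached beyond the genes, though not around Cdh6. The flanks of Cdh6 held 20.8 ± 10.01 peaks in sgNr2f2 libraries and 21 ± 5.60 in sgRosa libraries (exact permutation p = 1). From 500 kb below Cdh6 to 500 kb above Cdh18 (chr15:12528699-23977491), the member gene bodies held 15.1 ± 0.679 peaks per Mb in sgNr2f2 and 27.9 ± 6.16 in sgRosa. The sequence between and around them held 16.7 ± 2.45 in sgNr2f2 and 28.2 ± 9.29 in sgRosa, and neither pair of groups overlapped. The stretch was drawn around the members, and the share of like stretches of the genome that separate the groups was not computed. The lack of overlap is therefore a description and not a result about the members. The ratios were 0.540 in the bodies and 0.594 outside them. Over the rest of chromosome 15 the densities were 20.3 ± 3.34 peaks per Mb in sgNr2f2 and 25.0 ± 5.67 in sgRosa, with a ratio of 0.811 and overlapping groups. Around the members on chromosome 1 the bodies held 17.3 ± 3.84 peaks per Mb in sgNr2f2 and 25.0 ± 12.3 in sgRosa. Around those on chromosome 8 the bodies held 20.6 ± 3.12 in sgNr2f2 and 22.4 ± 3.77 in sgRosa, and on both chromosomes the groups overlapped. The sequence around these bodies was lower in sgNr2f2 too, again with overlapping groups. On chromosome 1 it held 17.7 ± 4.56 peaks per Mb in sgNr2f2 and 23.2 ± 4.90 in sgRosa. That is a ratio of 0.763, beside 0.939 over the rest of the chromosome. On chromosome 8 it held 16.1 ± 2.43 in sgNr2f2 and 20.3 ± 6.49 in sgRosa, a ratio of 0.795, beside 1.22 over the rest. In 18 bins of 1 Mb around the chromosome 15 members, the mean was lower in sgNr2f2 in 14, beside 48.8% of 2415 bins of the genome. Of these, 5 bins had groups that did not overlap, where 2.9% of the 2415 did so in that direction. The highest count of any library in these bins was 61 peaks, in sgRosa 1, in the bin that starts 3 Mb before Cdh12, where the other sgRosa libraries had 17 to 25.

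**Figure D3:**
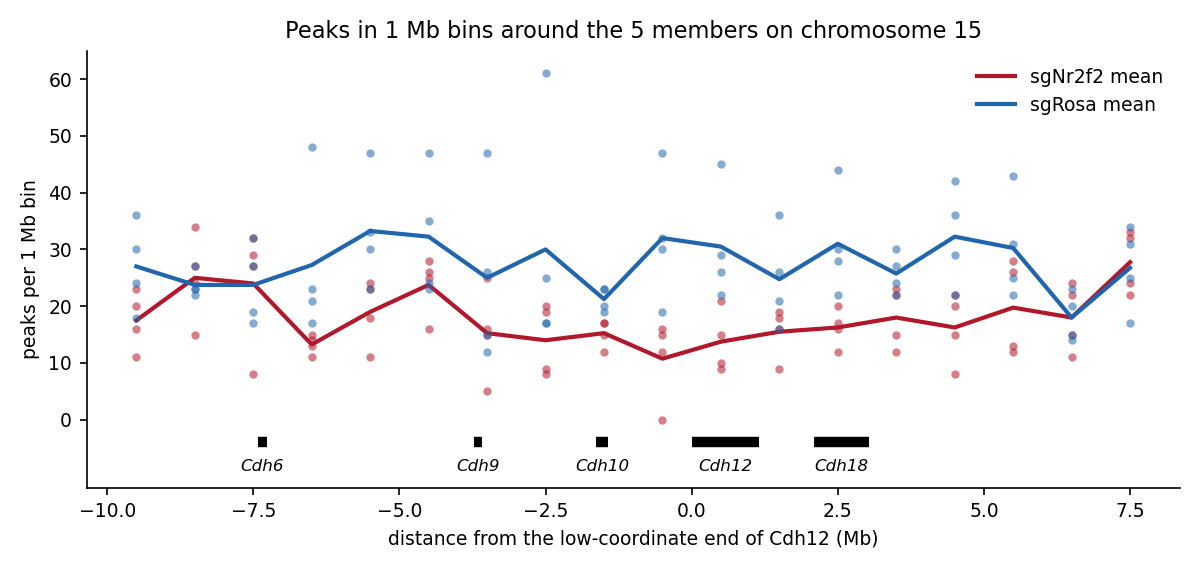
Peaks per 1 Mb bin along the part of chromosome 15 that holds Cdh6, Cdh9, Cdh10, Cdh12 and Cdh18 (black bars), by distance from the low-coordinate end of Cdh12; points are libraries and lines are means of sgNr2f2 and sgRosa. The sgNr2f2 mean is below the sgRosa mean in 14 of 18 bins, and not in the bin that holds Cdh6, with 24 peaks in sgNr2f2 and 23.8 in sgRosa.

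The stretch is poor in genes, and across the whole genome the ratio of the group means rose with gene density, a trend that was not tested. The flanks of 7 of the 9 members hold no other protein-coding gene. In the 220 bins of 1 Mb that touch no protein-coding gene, sgNr2f2 libraries averaged 16.7 ± 3.59 peaks per bin and sgRosa libraries 23.2 ± 3.34 (SD over 4 libraries), a ratio of 0.722. In bins with 1 gene the ratio was 0.821, with 2 to 4 genes 0.944, with 5 to 19 genes 1.08 and with 20 genes or more 1.22. In that last class the averages were 25.3 ± 2.67 peaks per bin in sgNr2f2 and 20.8 ± 2.87 in sgRosa, and in each of these classes the ranges of the groups overlapped. The 13 bins that hold part of a member averaged 15.6 ± 1.93 peaks in sgNr2f2 and 25.1 ± 6.47 in sgRosa, a ratio of 0.622, and 10 of them touch 1 protein-coding gene. The part of gene density in the member counts was not tested. As a percent of each library's peaks in bins with 0 or 1 gene, the member sum was 0.621, 0.542, 0.762 and 0.596 in sgNr2f2 libraries, against 0.884, 0.743, 0.776 and 0.795 in sgRosa libraries. On this scale, chosen after the data were seen, the groups overlap, the ratio is 0.788, and 5 of 9 members keep a lower mean in sgNr2f2. The exact permutation p of Cdh12 is then 0.0571, so the count of members under 0.05 is 0. Shares over all genes on this scale are not given here, so these counts are not results about the members.

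**Figure D4:**
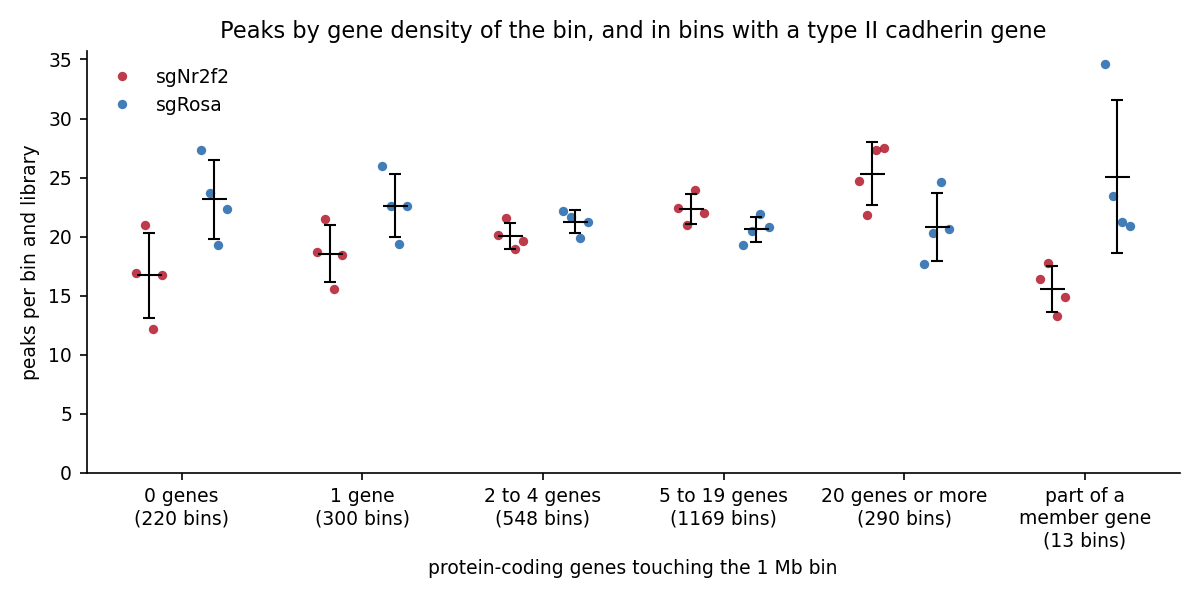
Peaks per 1 Mb bin and library by the number of protein-coding genes that touch the bin, and in the 13 bins with part of a type II cadherin gene, with sgNr2f2 left of sgRosa; points are libraries, bars are mean and SD (n = 4 each). The ratio of sgNr2f2 to sgRosa goes from 0.722 in bins without genes to 1.22 in bins with 20 or more, and is 0.622 in the member bins.

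Most member peaks were found in a single library. Merging intervals that overlap by at least 1 bp gave 580 member regions, of which 555 were in 1 library, 23 in 2, 1 in 3 and 1 in 7. The share in 2 or more libraries was 4.31% (95% Wilson interval 2.94% to 6.29%, for counting error only), against 5.13% of all 405544 regions. By gene it ran from 0 of 16 regions at Cdh9 (Wilson upper bound 19.4%) to 2 of 29 at Cdh7 and at Cdh10. Of the 555 regions in 1 library, 213 came from sgNr2f2 libraries and 342 from sgRosa libraries. No member region was in every library of one group and in none of the other, while 8 of all regions (0.00197%) were. Member peaks were of a strength like that of the rest. Their median −log10 p was 3.61 to 4.29 in sgNr2f2 libraries and 3.33 to 4.09 in sgRosa libraries, beside 3.50 to 4.09 and 3.81 to 3.90 for all peaks of those groups. Median widths of member peaks were 162 to 194 bp in sgNr2f2 libraries and 150 to 187 bp in sgRosa libraries. At a q under 0.05, the full lists kept 7, 6, 12 and 8 member peaks in sgNr2f2 libraries, against 25, 5, 9 and 23 in sgRosa libraries. Those were 6% to 18.8% of the member peaks in sgNr2f2 libraries and 4.95% to 17.0% in sgRosa libraries, close to the shares over all peaks of 5.99% to 18.6% in sgNr2f2 and 4.81% to 18.6% in sgRosa.

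The exception in recurrence was a 218 bp region inside Cdh12, at chr15:21114867-21115084, found in 7 libraries. It was 1 of 580 member regions (0.172%) in 7 or 8 libraries, beside 299 of all 405544 regions (0.0737%), so such regions are also found elsewhere. It begins 3416 bp beyond the Cdh12 start of the promoter table (21111451), which lies well inside the gene span and not at its low-coordinate end (20448878). The small nuclear RNA gene Gm25101 lies 392 bp away. The region had no peak in sgNr2f2 1, where the nearest summit was 4713 bp away. Its −log10 p was 5.62, 19.9 and 31.5 in sgNr2f2 2 to 4, against 15.3, 15.8, 18.8 and 15.03 in sgRosa 1 to 4. The highest and the lowest values were both in sgNr2f2 libraries, so the groups overlapped. Its summits lay within 17 bp of each other. In 6 of those 7 libraries it was the strongest peak at any member, and in sgNr2f2 2 another member peak reached 6.30. Fold enrichment over background, the authors' own value for each peak, was 3.46 to 9.57 in sgNr2f2 libraries and 5.11 to 6.96 in sgRosa libraries. The region found in 3 libraries was in Cdh10 (chr15:18852577-18853134), in sgNr2f2 3, sgRosa 1 and sgRosa 4, with a −log10 p of at most 3.90. Of the 6 next regions by strength, each in 2 libraries, the strongest was in Cdh12 (chr15:21418441-21418600), in sgRosa 3 and sgRosa 4, with a highest −log10 p of 8.46. Repeats and sites of excess signal were not removed from the lists.

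**Figure D5:**
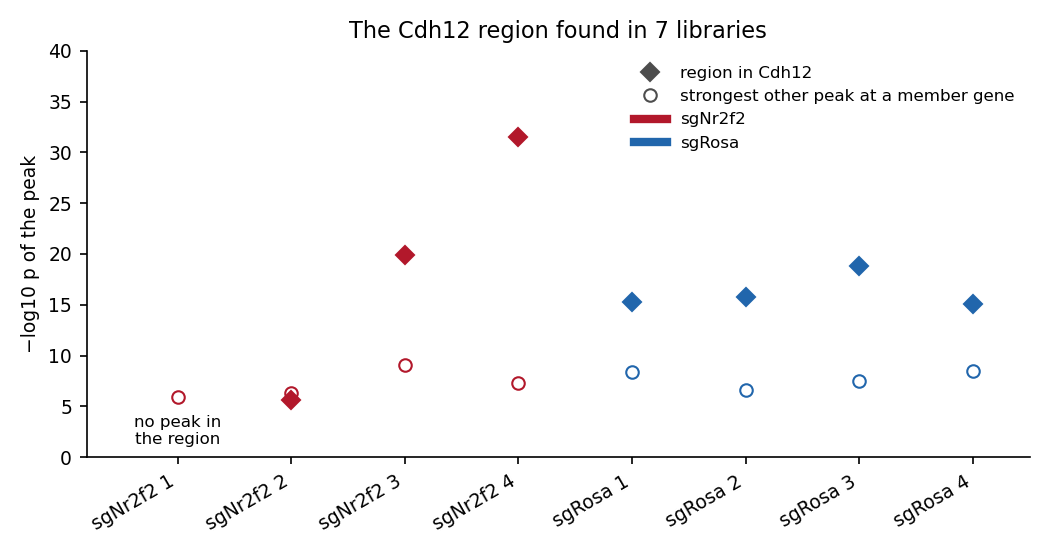
The −log10 p of the peak in the recurrent Cdh12 region (filled diamonds) and of the strongest other peak at any type II cadherin gene (open circles) in each library, sgNr2f2 to the left and sgRosa to the right. The region reaches 5.62 to 31.5 in the sgNr2f2 libraries that have it and 15.03 to 18.8 in sgRosa, and sgNr2f2 1 has no peak there.

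Within the longest genes the peaks were spread along the whole body. Each gene span was cut into 3 equal parts from its low-coordinate end, both genes being on the plus strand. Cdh12 had 16, 31 and 21 peaks over the sgNr2f2 libraries together, against 43, 54 and 35 over the sgRosa libraries. Cdh18 had 26, 14 and 16 over the sgNr2f2 libraries, against 35, 47 and 29 over the sgRosa libraries. In each part of both genes the sgNr2f2 total was the lower one. These parts divide the peaks already counted per gene, and each total pools the 4 libraries of a group, so they are not separate observations.

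Other adhesion genes are set beside the members here. For peak number per gene, 0 of 31 genes in 5 lists of related genes had an exact permutation p under 0.05. Over all genes tested, 0.543% passed it lower in sgNr2f2 and 1.3% higher, so a count of 0 among 31 genes is not informative. Of those that reached 8 peaks, 0 had an adjusted p under 0.05. Among the other type II cadherins, 2 of 4 tested had a lower and 2 a higher mean in sgNr2f2; Cdh5, the endothelial cadherin, averaged 1.75 ± 0.5 peaks in sgNr2f2 and 0.5 ± 0.577 in sgRosa (exact permutation p = 0.0857). Of the 4 type I cadherins tested, 1 had a lower and 3 a higher mean, with 2.5 ± 2.38 peaks in sgNr2f2 and 4.75 ± 2.22 in sgRosa at Cdh2, N-cadherin (exact permutation p = 0.286). Of the 4 atypical cadherins, 0 had a lower and 3 a higher mean. Among them Cdh13, a cadherin held to the membrane by a lipid anchor, averaged 34.8 ± 9.54 peaks in sgNr2f2 and 24.0 ± 3.92 in sgRosa (exact permutation p = 0.114). Of the 8 catenins and p120 relatives tested, 5 had a lower mean. Ctnna3, an alpha-catenin, averaged 28.8 ± 6.13 peaks in sgNr2f2 and 44.5 ± 17.9 in sgRosa (exact permutation p = 0.0857), and the p120 relative Pkp4 averaged 6.25 ± 2.75 in sgNr2f2 and 2.25 ± 2.06 in sgRosa (exact permutation p = 0.0857). Of the 5 delta protocadherins tested, 0 had a lower and 3 a higher mean, while in full lists 4 of 7 had a lower and 2 a higher mean. In flank peaks, Cdh19 and Ctnnd2 had the same exact permutation p of 0.0286 as Cdh12 and Cdh18, and an adjusted p of 0.679. The flanks of Cdh19 held 12.2 ± 5.38 peaks in sgNr2f2 and 26.8 ± 10.2 in sgRosa, and those of Ctnnd2 14.5 ± 3.11 and 24.5 ± 4.73. No related gene passed 0.05 with more flank peaks in sgNr2f2. Of genes of at least 50 kb, 1.09% passed it lower and 3.12% higher. The difference between these lists and the members was not tested.

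The genes whose peaks were spread over the libraries most like the summed member count were picked by the city-block distance between shares, over the 8 libraries and 1014 genes with at least 40 peaks. They were Sgcd, which encodes a sarcoglycan of the muscle membrane (distance 0.118), the receptor phosphatase Ptprd (0.136), the RNA-editing relative Adarb2 (0.140), the netrin-G ligand Lrrc4c (0.153) and the neurexin relative Cntnap2 (0.154). The median distance over the candidates was 0.42. Sgcd had 14, 17, 12 and 19 peaks in sgNr2f2 libraries, against 37, 25, 27 and 32 in sgRosa libraries. Cntnap2 had 48, 51, 34 and 33 in sgNr2f2 libraries, against 110, 74, 48 and 62 in sgRosa libraries, so it too was highest in sgRosa 1.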

How the data were processed

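ATAC-seq peak lists of 8 libraries, 4 sgNr2f2 and 4 sgRosa, were deposited in mm10 coordinates, one list per library. Per the submitters' processing notes, MACS2 2.2.9.1, fastp 0.23.2, Picard, HOMER 4.10 and DiffBind 3.10.0 were used; the aligner, duplicate handling and calling options are not given in the sources used here. Each deposited line holds the authors' score, the fold enrichment as a ratio, −log10 p and −log10 q; no −log10 p was below 2.00. Chromosomes 1 to 19 and X were kept, and summits sharing an interval were collapsed to the strongest (3499 lines removed). Equal-length lists took the strongest 53864 peaks, with tied peaks at the end (up to 18530 in a library) in seeded random order, since genome order favours some chromosomes.

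Group means were compared by exact permutation (70 assignments) and body with flanks by exact sign flips over libraries (256), with Benjamini-Hochberg adjustment over all genes tested. Python 3.11.15, numpy 2.4.6, pandas 2.3.3 and scipy 1.17.1 were used, and the tests were tried on simulated counts. Members and lists were chosen with earlier results of these data known. Named were all members, up to 4 genes per related list by smallest p, the 5 most similar genes and up to 8 most recurrent regions. The list lengths are no depth, and the interval given covers counting error only. Deviations of same-numbered libraries correlated at −0.00396 to 0.0172, and those of other pairs at −0.0534 to 0.0353. Most regions were found in 1 library, so these correlations cannot decide whether the replicate numbers pair libraries. Alternatives were list length, ranking, thresholds, windows, ties, scaling and leaving out each library. No column of another sample was present.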

Additional observations from a re-analysis of the deposited data

Results flagged for a closer look

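A library was picked out where its gap to the nearest of the other 3 libraries of its group was a larger part of the group's range than Dixon's 95% critical value for 4 samples. Of 76 groups of values examined, 9 met this (11.8%), where chance gives about 1 in 20, and counts this small have many ties. The groups are not independent, since the equal-length and full lists of a gene share peaks. Cdh8 in sgNr2f2 2 and Cdh9 in sgNr2f2 3 each enter under both lists, so the 2 shares cannot be compared directly. Cdh8 had 12 peaks in sgNr2f2 2, against 5 to 6 in the other sgNr2f2 libraries, and 24 peaks in its full list, against 6 to 9. The flanks of Cdh8 had 26 peaks in sgRosa 4, against 19 to 20 in the other sgRosa libraries. Cdh9 had 0 peaks in sgNr2f2 3, in the equal-length and in the full list, against 2 in each other sgNr2f2 library. Cdh20 had 6 peaks in sgNr2f2 3, against 4 in the others. Cdh10 had 17 peaks in the full list of sgRosa 4, against 3 to 5, and in the equal-length lists its body exceeded its flanks in sgRosa 4 by 7.40 peaks per Mb, against −3.80 to −2.80 in the other sgRosa libraries. In sgNr2f2 2 the body of Cdh12 exceeded its flanks by 6.01 peaks per Mb, against −0.431 to −0.0814 in the other sgNr2f2 libraries. The causes were not tested.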

How the results depend on the processing

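No member passed an adjusted p of 0.05 in the 4 comparisons (peak number, body against flanks, body minus flanks by group, flank peaks) under the alternatives run for each. The summed ratio of sgNr2f2 to sgRosa kept its direction under every alternative; it was 0.754 without Cdh12 and Cdh18, 0.788 relative to peaks in bins with 0 or 1 gene, and 0.565 to 0.661 when 1 library was left out. The groups, apart in the equal-length lists, overlapped in full lists (0.579), in counts with q under 0.05 (0.532), as percent of the chromosome (0.693) and on the gene-poor scale. As a percent of each library's own peaks of q under 0.05 they did not, at 0.0814% to 0.112% in sgNr2f2 and 0.156% to 0.217% in sgRosa. Members under an exact p of 0.05 for peak number (1, Cdh12) became 0 with full lists, lists cut to 26932 peaks and peaks of q under 0.05. The count was also 0 as percent of the chromosome and as percent of gene-poor bins. The replicate block gave 0 too, but its smallest possible p is 0.125, so it could not pass 0.05. Leaving out 1 library gave 0 to 2 members. It was 0 whichever sgNr2f2 library was left out, where the smallest exact permutation p was 0.0571 for Cdh12. Cdh6 alone passed without sgRosa 1, and Cdh12 with Cdh18 without sgRosa 3. Shares over all genes are given for the equal-length and full lists alone. Counts of members under the other alternatives, here and below, lack that share and are not results about the members. Members with a lower mean in sgNr2f2 were 5 of 9 with peaks of q under 0.05 (2 tested) and 5 on the gene-poor scale. For body against flanks, members under an exact p of 0.05 were 0 with lists of 26932 peaks and with 250 kb flanks, 2 (Cdh9, Cdh11) with every summit kept, and 0 to 1 with 1 library left out. For body minus flanks between groups the count was 1 (Cdh12) with full lists and 0 to 1 with 1 library left out (Cdh6 without sgRosa 1). For flank peaks it was 0 with full lists and 0 to 2 with 1 library left out (0 without any sgNr2f2 library). The share of regions in 2 or more libraries was 6.49% in full lists, 2.03% in lists of 26932 peaks and 2.52% to 4.75% with 1 library left out, lowest without sgRosa 3 and sgRosa 1. Uncalled differences changed sign as follows. In peak number, Cdh8 was 1 in full lists, 1.25 in lists of 26932 peaks, 0.00106% of the full list and 0.0102% of gene-poor peaks; Cdh20 was 0.75 in lists of 26932 peaks, 0.25 with either other treatment of ties, 0.00151% of the full list, 0.000874% of the chromosome and 0.0119% of gene-poor peaks; Cdh10 was 0.000783% and Cdh11 0.0104% of gene-poor peaks. With 1 library left out these ran from −2.08 to 0.25 (Cdh8), −1.33 to 1 (Cdh11) and −1.83 to 1.5 (Cdh20). Body minus flank density in peaks per Mb was −2.26 for Cdh7, −1.46 for Cdh8 and 0.0569 for Cdh18 in full lists, −3.43 for Cdh8 and −1.27 for Cdh10 in lists of 26932 peaks, −1.43 for Cdh6, −1.79 for Cdh8 and 0.663 for Cdh18 with q under 0.05, and −0.379 for Cdh8 with every summit kept. With 1 library left out it ran from −0.989 to 2.19 (Cdh8), −0.321 to 1.69 (Cdh10), −1.97 to 1.42 (Cdh18) and −6.36 to 1.78 (Cdh20). Its group difference was 1.04 for Cdh12 in lists of 26932 peaks and −6.07 to 1.01 for Cdh18 with 1 library left out. The causes were not tested. Alternatives on ties, chromosome, gene density, flanks by group and members without Cdh12 and Cdh18 were chosen after seeing the data. With no read counts, presence of a peak is the sole measure, and weak peaks found in 1 library limit every count.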

Other observations

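The ratio of the group means fell from the shorter to the longer classes of genes. This trend was not tested, nor was it separated from that with gene density. Over the 3580 tested genes under 50 kb, sgNr2f2 libraries held 5272 ± 620.1 peaks and sgRosa libraries 4431 ± 432.7 (SD over 4 libraries), a ratio of 1.19. The ratio was 1.15 for genes of 50 to 100 kb, 1.106 for 100 to 200 kb, 1.06 for 200 to 500 kb, 0.974 for 500 kb to 1 Mb and 0.91 for the 58 genes over 1 Mb. In each length class the ranges of the groups overlapped. Among the 220 tested genes of at least 500 kb, ordered by the ratio from the lowest, Cdh18 was number 7 at 0.509 and Cdh12 number 11 at 0.515. Without these 2 genes the other 218 had a ratio of 0.954, and 6 of them (2.75%) had groups that did not overlap with sgNr2f2 lower.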
